A study of Mus musculus with 3 samples.

Results

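Glucose metabolism in splenic B cells was followed through 10 genes, chosen by name for their place in the pathway out of the 27088 genes of the deposited table. They are the glucose transporters Slc2a1 and Slc2a3, the glycolytic enzymes Hk2, Pfkp, Pgk1, Eno1 and Ldha, the uptake inhibitor Txnip, and the transcription factors Hif1a and Myc. All 10 were found once in the table, and all 10 passed the minimum of 1 FPKM, the fragments per 1000 bases of exon and 1000000 mapped reads, in at least 1 of the 2 libraries compared.

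The RNA came from B cells sorted from the spleens of female BALB/c mice, which were 6 weeks old at the start and are labelled as 13 weeks old. The mice of both groups carried the same model of allergic rhinitis. They were sensitized intraperitoneally with 10 μg of the egg white protein ovalbumin (OVA) and 2 mg Al(OH)3 in 200 μl on days 0, 7 and 14, and received 100 μg OVA into the nose between days 21 and 35. On days 0, 14 and 28 the PBS group was injected subcutaneously with 50 μl phosphate-buffered saline, and the SJMHE1 group with 10 μg SJMHE1, a peptide of the blood fluke Schistosoma japonicum, in incomplete Freund's adjuvant. Spleens were taken on day 36. The PBS injections held no adjuvant, so peptide and adjuvant cannot be told apart. The cells of 3 mice were mixed for each group, which left 1 library per group, no replicate check and no p-value, and every difference below compares those 2 libraries. Healthy Control mice belong to the series but are not analysed here.

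Each library was deep, with 48267168 counts for PBS and 51280237 for SJMHE1. The 10 B cell marker genes had a summed level of 3399 FPKM in PBS and 3465 FPKM in SJMHE1, and Cd79a, a chain of the B cell receptor complex, was at 835 FPKM in both. Other markers were not level. All 18 T cell markers were lower in the SJMHE1 library, with a summed FPKM of 188 against 111, and without Cd2 and Lck, which B cells can also express, of 67.6 against 17.7. Cd2 and Lck were left out for their high level, seen in these data. They differed least of the 18, at 92.48 and 67.97 FPKM for Cd2 and 27.92 and 25.19 FPKM for Lck. Cd5, also found on some B cells, was kept. All 8 NK cell markers were lower as well, with sums of 14.7 and 6.72 FPKM. The 12 macrophage and monocyte markers split 6 to 6, with sums of 123 and 67.7 FPKM that turned mainly on Lyz2 at 88.79 and 37.4 FPKM, the 8 neutrophil markers split 4 to 4 around 338 and 439 FPKM, and 5 of 6 dendritic cell markers were lower, at 7.83 and 3.78 FPKM. The 8 erythroid markers of the table were all higher in SJMHE1, at 153 and 201 FPKM, 6 of 7 plasma cell markers were lower, at 654 and 549 FPKM, and the 5 platelet markers summed to 1.15 and 1.17 FPKM. All 10 heat shock genes were higher in SJMHE1, with sums of 1627 and 6436 FPKM. None of these markers was at 0 counts in either library, and their part in the ratios of the 10 genes was not tested. In bulk RNA, fewer cells of a type and less RNA per cell cannot be told apart.

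Cells take up glucose through transporters of the Slc2a family, trap it by phosphorylation through hexokinase, commit it at phosphofructokinase, and carry it through phosphoglycerate kinase and enolase to pyruvate, which lactate dehydrogenase turns into lactate. Myc and the oxygen-sensitive factor HIF-1 both activate transcription of many of these genes, and activated B cells are known to draw on the pathway when they grow and divide. Txnip acts the other way, as an arrestin-like protein that takes glucose transporters off the cell surface, and its own gene is switched on by glucose.

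None of the 10 genes differed by 2-fold or even 1.5-fold between the libraries. Ldha was the lowest in SJMHE1 relative to PBS, at 0.799 times its PBS level, and Hif1a the highest, at 1.15 times. Slc2a1, Pgk1, Txnip and Myc were also lower in SJMHE1 by more than counting error, while Slc2a3, Hk2, Pfkp and Eno1 were level within it. The log2 ratio of FPKM, SJMHE1 to PBS, ran from -0.32 to 0.20 over the 10 genes with a median of -0.09, against a median of -0.01 over all 12433 genes compared. Past a log2 ratio of 1 in either direction lay 0 of the 10 genes and 6.0% of all genes compared, and past 1.5-fold 0 of the 10 genes and 13.6% of all. Of all genes past a log2 ratio of 1, 302 were higher and 444 lower in SJMHE1. Only 101 and 151 of them had at least 1 FPKM in both libraries, as all 10 genes had. Intervals were taken at the 95% level from the exact binomial interval of the 2 counts, which covers counting error only and leaves out how mice differ. For 5 of the 10 genes the interval lay wholly below 0, as it did for 34.5% of all genes, and for 1 gene wholly above 0, as it did for 31.0%. With counts this deep, an interval off 0 was thus common across the table. Of the 11366 genes that reached 1 FPKM in the PBS and the SJMHE1 library alike, the middle 50% had log2 ratios between -0.18 and 0.16 and the middle 90% between -0.57 and 0.49. These ranges held 6 and 10 of the 10 genes.

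**Figure D1:**
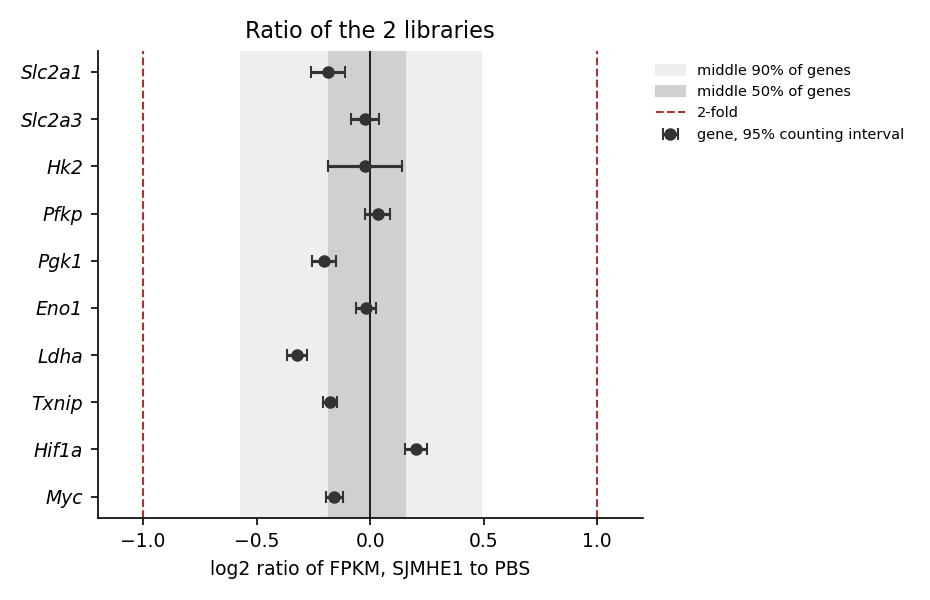
The log2 ratio of FPKM, SJMHE1 to PBS, is plotted for each of the 10 genes, with bars for the 95% counting interval and grey bands for the middle 50% and 90% of the 11366 genes that reached 1 FPKM in each library. Ldha at -0.32 and Hif1a at 0.20 lie at the ends, and all 10 genes lie inside the wider band and far from the dashed 2-fold lines.

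Levels differed far more between the 10 genes than between the 2 libraries. FPKM is a level per length, here the joined length of all annotated exons of a gene, so the order of the genes holds for that length only. On this scale Txnip was the highest, at 114 FPKM in PBS and 101 FPKM in SJMHE1, and Myc came next at 85.6 and 76.8 FPKM. Ldha followed at 50.9 FPKM in PBS, above Pgk1 at 47.5 FPKM. In SJMHE1 these neighbours stood at 40.66 FPKM (39.8 to 41.6) and 41.27 FPKM (40.2 to 42.4), with exact Poisson intervals for counting error, which overlapped. Eno1, Hif1a, Slc2a1, Slc2a3 and Pfkp came below them in that order in both libraries. Hk2 was the lowest, at 1.88 FPKM in PBS and 1.85 FPKM in SJMHE1. Ranked over the whole table, Txnip was gene 362 in PBS and 388 in SJMHE1, and Hk2 was gene 10198 and 10211. Divided by the length of the principal transcript instead, the order in both libraries was Myc, Txnip, Ldha, Eno1, Pgk1, Hif1a, Pfkp, Slc2a3, Slc2a1 and Hk2. In counts per 1000 bases of that transcript and 1000000 counts, Myc was at 194 in PBS and 173 in SJMHE1, Txnip at 145 and 128, Eno1 at 83.5 and 82.1, and Pgk1 at 66.4 and 57.5. Joined exons were between 1.08 times as long as the principal transcript, for Slc2a1 and Hk2, and 3.23 times, for Pfkp. For Myc the principal transcript has only 1365 bases against 2717 joined bases, so its place above Txnip rests on that short length.

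**Figure D2:**
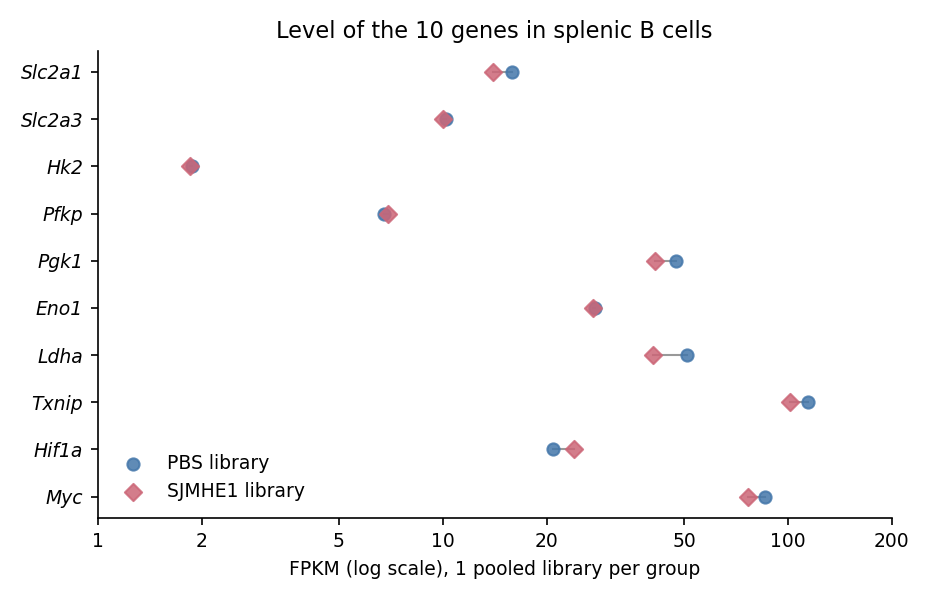
FPKM of the 10 genes on a log axis, with a circle for the PBS library and a diamond for the SJMHE1 library, 1 pooled library per group. Levels run from under 2 FPKM for Hk2 to over 100 FPKM for Txnip, and the 2 symbols of a gene lie close together, farthest apart for Ldha at 50.86 and 40.66 FPKM.

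Slc2a1 encodes GLUT1, the widespread basal glucose transporter, on chromosome 4 from 119108711 to 119137983, plus strand, of the mouse build mm10, which equals GRCm38 (ENSMUSG00000028645). Its level was 15.87 FPKM from 3057 counts in PBS and 13.95 FPKM from 2843 counts in SJMHE1. The SJMHE1 value was the lower, with a log2 ratio of -0.19 (-0.26 to -0.11), and 26.9% of all genes compared had a lower ratio still. Slc2a3 encodes GLUT3, a transporter of high glucose affinity, on chromosome 6 from 122727809 to 122779957, minus strand (ENSMUSG00000003153). At 10.2 FPKM from 4059 counts and 10.04 FPKM from 4230 counts it was level, with a log2 ratio of -0.02 (-0.09 to 0.04), and its sign turned with the scaling, since 4 of the 9 settings gave a value above 0. Slc2a1 stood 1.56 times as high as Slc2a3 in PBS and 1.39 times in SJMHE1 on the FPKM scale.

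That order, too, depended on the length each gene was divided by. The deposited FPKM of the genes checked followed the count divided by the joined length of all annotated exons, and FPKM divided by the count per 1000 exon bases and 1000000 counts lay between 0.875 and 0.879 for 16 genes in PBS. A gene with long rare transcripts therefore reads low. For Slc2a3 the joined exons span 7245 bases and the principal transcript of the annotation 3959 bases, whereas for Slc2a1 the lengths are 3506 and 3260 bases. In counts per 1000 bases of the principal transcript and 1000000 counts, Slc2a3 stood above Slc2a1 in both libraries, at 21.2 against 19.4 in PBS and 20.8 against 17.0 in SJMHE1. The ratio of the 2 libraries for a gene does not depend on this length.

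Other transporters were scarcer. Of the 10 listed glucose transporters in the table, Slc2a1 and Slc2a3 included, 7 passed a minimum of 0.1 FPKM. In SJMHE1, 6 of them were lower and 1 higher, with a median log2 ratio of -0.23 against -0.03 for all genes under that filter. Slc2a6, an intracellular transporter seen in immune cells, had the lowest ratio of those with an FPKM of at least 1, at 4.89 FPKM in PBS and 3 FPKM in SJMHE1, a log2 ratio of -0.70 (-0.86 to -0.55). Slc2a8 and Slc2a9 were at 2.47 and 3.66 FPKM in PBS and at 1.97 and 3.12 FPKM in SJMHE1. The insulin-dependent transporter Slc2a4 was at 0.06 and 0.1 FPKM.

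Hk2, the inducible hexokinase, lies on chromosome 6 from 82725025 to 82774454, minus strand (ENSMUSG00000000628). It was counted 618 times in PBS and 641 times in SJMHE1, for a log2 ratio of -0.02 (-0.18 to 0.14), the widest interval of the 10 genes, and 3 of 9 settings put it above 0. Most hexokinase transcript came from Hk1, the constitutive form, at 8.95 FPKM in PBS and 8.39 FPKM in SJMHE1, or 71.8% and 73.2% of the family. Hk2 held 15.1% and 16.1%. Hk3, a form of myeloid cells, held 13.2% and 10.4%, with levels of 1.64 and 1.19 FPKM and a log2 ratio of -0.46 (-0.70 to -0.22). The 12 macrophage and monocyte markers were 6 higher and 6 lower, with a median of -0.02. Adgre1, Csf1r, Cd68, Itgam, Lyz2 and Marco were the 6 lower, with log2 ratios from -0.38 to -2.87. Mrc1, Vcam1, Cd5l, C1qa, C1qb and C1qc were the 6 higher, from 0.34 to 1.83. The part of these markers in Hk3 was not tested.

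Pfkp, the platelet-type phosphofructokinase, lies on chromosome 13 from 6579768 to 6648777, minus strand (ENSMUSG00000021196). Its level was 6.76 FPKM from 4976 counts in PBS and 6.92 FPKM from 5389 counts in SJMHE1, so the libraries were level within counting error at a log2 ratio of 0.03 (-0.02 to 0.09). Its share of the 3 phosphofructokinase genes was 42.0% in PBS and 44.5% in SJMHE1, just under the 48.4% and 45.6% of the liver-type Pfkl. The order again turned with the length used, because the joined exons of Pfkp span 13401 bases and its principal transcript 4145 bases. By principal transcript Pfkp held 58.1% and 60.7% of the family and Pfkl 37.1% and 34.4%. The muscle-type Pfkm stayed scarce at 1.56 and 1.55 FPKM. At its end Pfkp overlaps Pitrm1 on the other strand by 748 bases.

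Pgk1, phosphoglycerate kinase, the first step of glycolysis that yields ATP, lies on chromosome X from 106187100 to 106203699, plus strand (ENSMUSG00000062070). It was at 47.47 FPKM from 5848 counts in PBS and at 41.27 FPKM from 5382 counts in SJMHE1, lower by a log2 ratio of -0.20 (-0.26 to -0.15). Of its 50-base exon windows, 53.9% also occur in another gene, above all in the processed copies Pgk1-rs7 and Gm5537. These held few counts, 98 and 67 in PBS and 113 and 78 in SJMHE1, and with them added the log2 ratio of the scaled counts was -0.20 (-0.25 to -0.14). Pgk1 is a textbook target of HIF-1, which binds the letters ACGTG in its response elements. The 250 bases before its RefSeq start, at chrX:106186850-106187099 on the plus strand of GRCm38.p6, hold that core once on each strand, 150 and 131 bases before the start, shown here in capitals because this promoter carries a pair of HIF-1 cores close to each other.

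Pgk1 promoter: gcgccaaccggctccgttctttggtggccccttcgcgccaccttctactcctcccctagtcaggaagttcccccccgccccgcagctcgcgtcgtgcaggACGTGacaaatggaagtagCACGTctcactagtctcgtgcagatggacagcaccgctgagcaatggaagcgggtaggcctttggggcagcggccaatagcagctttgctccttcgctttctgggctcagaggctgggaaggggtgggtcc

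Eno1, enolase of most tissues, lies on chromosome 4 from 150236721 to 150248879, plus strand (ENSMUSG00000063524). Its counts of 8167 in PBS and 8536 in SJMHE1 gave 27.64 and 27.3 FPKM and a log2 ratio of -0.02 (-0.06 to 0.03), level within counting error and above 0 in 4 of 10 settings. Eno1 shares 26.0% of its windows with other genes, and its near-identical copies Eno1b and Gm4735 were counted 4209 and 4005 times in PBS and 3834 and 3772 times in SJMHE1. With the 3 genes summed, the counts were 16381 and 16142 and the log2 ratio of the scaled counts was -0.11 (-0.14 to -0.08), so the value for Eno1 alone depended on how reads were split between copies. By FPKM Eno1 held 33.5% of the enolase family in PBS and 36.6% in SJMHE1, under the 49.5% and 47.1% of Eno1b. By principal transcript, 2027 of its 5379 joined bases, it led with 55.5% and 58.8%. Eno1b shares 85.2% of its windows with other genes and 76.4% with Eno1, and Gm4735 was not counted in the family. These shares of Eno1 and Eno1b therefore also depend on how reads were split between copies. Eno3, the muscle form, held 16.3% and 15.9% of the FPKM, and Eno2, the neuronal form, was at 0.58 and 0.39 FPKM.

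**Figure D3:**
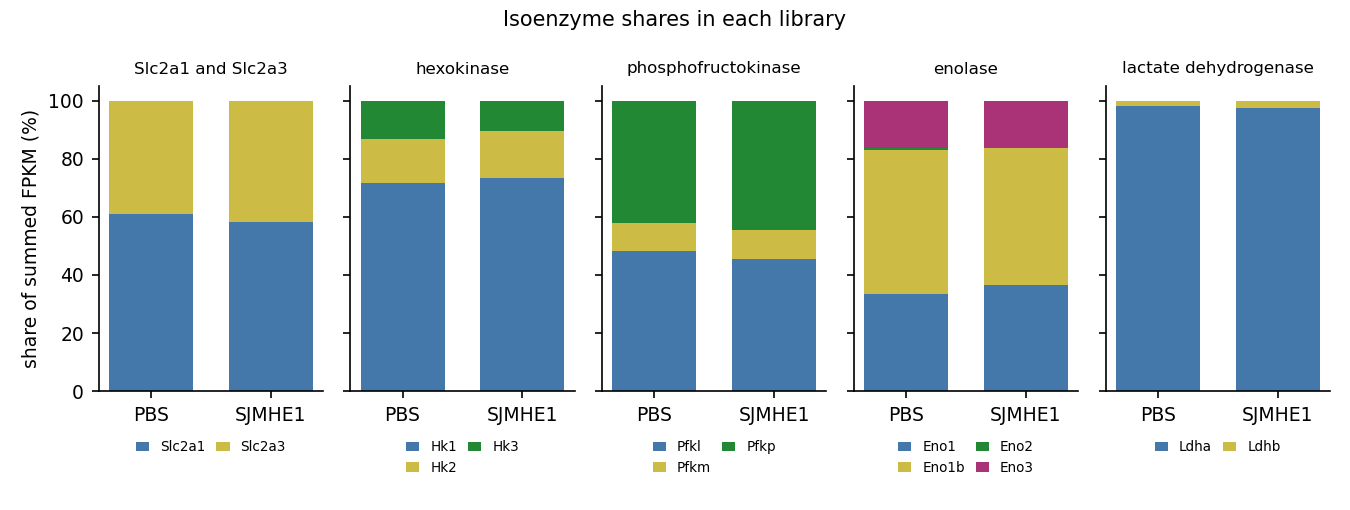
Stacked bars give each gene's share of the summed FPKM, in percent, of 5 families in the PBS and SJMHE1 libraries, without genes too scarce to be seen. Ldha fills nearly all of lactate dehydrogenase and Hk1 most of hexokinase, and no share of the 10 genes differs between the bars by more than that of Eno1, at 33.5% and 36.6%.

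Ldha encodes the subunit of lactate dehydrogenase that favours lactate, on chromosome 7 from 46841475 to 46855627, plus strand (ENSMUSG00000063229). Its level was 50.86 FPKM from 9243 counts in PBS and 40.66 FPKM from 7823 counts in SJMHE1. Of the 10 genes it stood farthest below PBS, with a log2 ratio of -0.32 (-0.37 to -0.28), and 16.4% of all genes compared had a lower ratio, so it lay outside the middle 50% of the table but inside the middle 90%. All 8 alternatives of scaling and pseudocount kept it below 0, between -0.33 and -0.24. Ldhb, the subunit of oxidative tissues, was at 0.98 and 1.12 FPKM, with 85 and 104 counts and a log2 ratio of 0.19 (-0.23 to 0.62). On the FPKM scale Ldha thus stood 51.9 times as high as Ldhb in PBS and 36.3 times in SJMHE1. Against Pdha1, a subunit of the pyruvate dehydrogenase that sends pyruvate into the mitochondrion, it stood 2.61 times as high in PBS and 2.22 times in SJMHE1. Other genes matched 9.03% of the Ldha windows, and the most similar copy found in the counts, Gm5452, was counted 0 and 2 times.

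The Ldha promoter is printed because it holds the letters both regulators are known to bind. CACGTG, the E-box that Myc binds with Max, occurs 2 times in the 250 bases before the upstream RefSeq start, at chr7:46845554-46845803 on the plus strand of GRCm38.p6, 145 and 48 bases before it, and a further CACGT, the HIF-1 core read on the other strand, lies 34 bases before it. This window lies inside the span the table gives to the gene. Capitals mark the 3 places.

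Ldha promoter: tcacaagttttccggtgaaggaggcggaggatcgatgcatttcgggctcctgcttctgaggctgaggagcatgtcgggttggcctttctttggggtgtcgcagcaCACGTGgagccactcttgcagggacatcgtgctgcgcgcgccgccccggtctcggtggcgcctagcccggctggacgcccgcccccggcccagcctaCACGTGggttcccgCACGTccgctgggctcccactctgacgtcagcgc

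Promoters were given for 8 of the 10 genes, with 11 starts in all. On both strands CACGTG occurred in 6.02% of the 32851 promoters of the RefSeq table and in 2 of the 8 genes, Ldha and Hif1a. ACGTG on either strand, which every CACGTG contains, occurred in 16.6% of all promoters and in 5 of the 8 genes, which were Slc2a1, Hk2, Pgk1, Ldha and Hif1a. Of these 5 genes, 3 had ratios below 0 beyond counting error, Hk2 was level and Hif1a was above 0. The shares of all promoters count starts, whereas the 8 genes were counted if any start held the letters. Counted by start, CACGTG occurred at 2 and ACGTG on either strand at 5 of the 11 starts. The second Ldha start held neither. A match of letters is a description of the window, not a binding site.

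Txnip lies on chromosome 3 from 96557957 to 96561883, plus strand (ENSMUSG00000038393). It had the most counts of the 10 genes, 19601 in PBS and 18362 in SJMHE1, which gave 114.33 and 101.18 FPKM. The SJMHE1 library was the lower by a log2 ratio of -0.18 (-0.21 to -0.15), inside the middle 50% of all genes, and 28.0% of the genes compared had a lower ratio. Txnip and Slc2a1, the transporter it acts on, kept nearly the same proportion, at 7.20 times in PBS and 7.25 times in SJMHE1. The predicted gene Gm15441 covers the whole of Txnip on the opposite strand, with 6 and 24 counts. Whether the counting used strand is not stated, so reads from the 2 genes may not be told apart.

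The Txnip promoter is known for its carbohydrate response element, where MondoA (Mlxip) or ChREBP (Mlxipl) binds together with Mlx when glucose is plentiful. A pair of CACGNG spaced by 5 bases, 1 form of that element, starts 85 bases before the RefSeq start in the window chr3:96557707-96557956 on the plus strand of GRCm38.p6. It is shown in capitals, since only 15 of the 32851 promoters, or 0.0457%, hold such a pair, and Txnip was the 1 gene of the 8 that did. The search covered only pairs read in the same direction, as shown here, so other forms of the element were not counted. Its count describes these letters only.

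Txnip promoter: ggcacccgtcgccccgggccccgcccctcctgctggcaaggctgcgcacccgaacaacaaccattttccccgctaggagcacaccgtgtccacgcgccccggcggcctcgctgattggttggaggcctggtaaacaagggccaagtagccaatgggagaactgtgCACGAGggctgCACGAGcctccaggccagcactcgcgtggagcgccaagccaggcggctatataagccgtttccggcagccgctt

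Of the factors that read this element, RNA of Mlxip and Mlx was counted in both libraries. Mlxip was level at 30.46 FPKM in PBS and 30.27 FPKM in SJMHE1. Mlx was higher in SJMHE1, at 13.63 and 16.86 FPKM, with a log2 ratio of 0.31 (0.21 to 0.40), and Mlxipl had 0 counts in both, where 0 allows up to 3. Over Txnip and its relatives, 11 genes passed the filter, 4 of them higher and 7 lower, with a median of -0.01. Thioredoxin, Txn1, which Txnip binds and inhibits, was at 26.29 FPKM in PBS and 22.35 FPKM in SJMHE1, a log2 ratio of -0.23 (-0.34 to -0.13). Arrdc4, the closest glucose-responsive relative of Txnip, was scarce, at 0.37 and 0.16 FPKM from 82 and 37 counts.

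Hif1a, the oxygen-regulated subunit of HIF-1, lies on chromosome 12 from 73901375 to 73947530, plus strand (ENSMUSG00000021109). It was the 1 gene of the 10 that was higher in SJMHE1 beyond counting error, at 20.81 FPKM from 6735 counts in PBS and 23.94 FPKM from 8204 counts in SJMHE1. The log2 ratio was 0.20 (0.16 to 0.25), above that of 78.1% of the genes compared, and it stayed between 0.19 and 0.29 in every setting of scaling and pseudocount. Hif1a made up 99.5% of the HIF alpha FPKM in PBS and 99.6% in SJMHE1, with Epas1, the HIF-2 subunit, at 0.1 and 0.06 FPKM. HIF-1 is controlled mainly through the stability of this protein, which RNA does not show. Gm15283 covers the whole gene on the opposite strand with 33 and 73 counts. The Hif1a promoter at chr12:73907617-73907866, plus strand of GRCm38.p6, inside the span the table gives to the gene, holds 1 CACGTG 135 bases and 1 further ACGTG 70 bases before the start, both in capitals. It is shown as the counterpart of Ldha, the other gene with an E-box, whose ratio was opposite in sign.

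Hif1a promoter: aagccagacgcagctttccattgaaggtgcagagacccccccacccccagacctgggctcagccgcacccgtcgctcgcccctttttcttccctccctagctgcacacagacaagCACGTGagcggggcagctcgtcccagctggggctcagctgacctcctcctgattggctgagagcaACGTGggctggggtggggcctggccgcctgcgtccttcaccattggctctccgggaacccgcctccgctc

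Among the HIF subunits and their controllers, Hif1a itself included, 9 genes passed the filter, 5 higher and 4 lower, with a median log2 ratio of 0.02. The partner subunit Arnt was at 8.71 FPKM in PBS and 9.5 FPKM in SJMHE1, a log2 ratio of 0.13 (0.06 to 0.19). The most abundant of the prolyl hydroxylases that mark HIF for breakdown, Egln2, was lower in SJMHE1, at 26.28 and 22.73 FPKM with a log2 ratio of -0.21 (-0.27 to -0.14). Vhl, which takes the marked protein to the proteasome, was at 6.88 and 6.07 FPKM. Of the 16 HIF targets outside glycolysis that passed, 10 were higher and 6 lower, with a median of 0.05. Their summed level was 120 FPKM in PBS and 106 FPKM in SJMHE1, a fall that turned mainly on Bhlhe40, whose levels are given below. P4ha1, a collagen prolyl hydroxylase, had the highest ratio at 5.28 and 7.42 FPKM, a log2 ratio of 0.49 (0.38 to 0.60). At the other end, 2 of the 13 targets with at least 1 FPKM in a library, Bhlhe40 and Vegfa, lay below a log2 ratio of -1. So did the scarcer Egln3, from 39 and 18 counts, and Car9, from 25 and 13 counts. Below -1 lay 444 of all 12433 genes compared, and 151 of the 11366 with at least 1 FPKM in both libraries. Vegfa reached 1 FPKM, and Car9 the list minimum of 0.1 FPKM, only in PBS, which favours a ratio below 0. Bhlhe40, a transcriptional repressor also induced by lymphocyte activation, was at 37.26 FPKM in PBS and 16.5 FPKM in SJMHE1, a log2 ratio of -1.18 (-1.23 to -1.12). Vegfa, the blood vessel growth factor, was at 1.1 and 0.54 FPKM from 260 and 136 counts, a log2 ratio of -1.03 (-1.34 to -0.72). Both are also expressed outside B cells, and all 18 T cell markers were lower in the same library, while the macrophage and monocyte markers went both ways. Their part in these 2 ratios was not tested.

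Myc lies on chromosome 15 from 61985391 to 61990350, plus strand (ENSMUSG00000022346). It was at 85.58 FPKM from 12765 counts in PBS and at 76.76 FPKM from 12120 counts in SJMHE1, among the 514 most abundant genes of either library. The log2 ratio of -0.16 (-0.19 to -0.12) put SJMHE1 the lower beyond counting error but inside the middle 50% of all genes, with 30.0% of the genes compared at a lower ratio. Myc held 99.3% of the Myc family FPKM in PBS and 99.7% in SJMHE1, and Mycl was at 0.6 and 0.19 FPKM from 133 and 46 counts. Since Hif1a was higher and Myc lower, Myc stood 4.11 times as high as Hif1a in PBS and 3.21 times in SJMHE1 on the FPKM scale. By principal transcript, Myc was at 194 and 173 and Hif1a at 29.5 and 33.9, so the size of this quotient rests on the length used and its lower value in SJMHE1 does not.

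The network around Myc was mixed. Of 11 genes that passed, Myc itself included, 3 were higher and 8 lower. The median of -0.16 was the value of Myc itself. With the 9 genes of at least 1 FPKM in a library, the median was -0.02, as Mycl and Mxd3, both lower, fell under that minimum. Max, the partner Myc needs to bind DNA, was level at 25.14 and 24.83 FPKM. Of the Max partners that oppose Myc, Mxi1 had the lowest ratio at 1.86 and 1.19 FPKM, a log2 ratio of -0.64 (-0.82 to -0.47), and Mxd4 was slightly higher at 14.53 and 15.63 FPKM. All 20 Myc targets outside glycolysis passed, 7 higher and 13 lower, with a median of -0.09 and 0 genes past 2-fold. The most abundant, the nucleolar protein Npm1, was at 173 FPKM in PBS and 163 FPKM in SJMHE1, a log2 ratio of -0.09 (-0.11 to -0.06). Nme2, a nucleoside diphosphate kinase, had the lowest ratio at 63.36 and 44.56 FPKM, -0.51 (-0.58 to -0.44) on the log2 scale, and Ppat, of purine synthesis, the highest at 6.03 and 7.66 FPKM, 0.35 (0.25 to 0.44).

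Most other glycolytic genes had ratios below 0, as Ldha and Pgk1 did. Of 25 glycolytic enzyme genes that passed the filter of 0.1 FPKM, the 5 enzymes among the 10 genes included, 20 were lower in SJMHE1 and 5 higher. Their median log2 ratio was -0.16, against -0.03 for all genes under that filter. Of the 12433 genes compared, which had to reach 1 FPKM, 51.9% were lower. With each library scaled to an equal FPKM sum, the median of the enzymes was -0.076, against 0.074 for genes of at least 1 FPKM in each library. Aldoa, the most abundant aldolase, was level at 90.21 FPKM in PBS and 88.76 FPKM in SJMHE1, and Pkm, the pyruvate kinase of lymphocytes, was at 61.36 and 54.34 FPKM with a log2 ratio of -0.18 (-0.21 to -0.14). Pklr, the pyruvate kinase of liver and red cells, was the 1 enzyme past 2-fold, higher at 1.06 and 2.68 FPKM from 190 and 505 counts, a log2 ratio of 1.34 (1.09 to 1.59). The erythroid markers, all 8 higher in SJMHE1 with a median of 0.52, moved the same way, and their part in Pklr was not tested.

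Branches off the pathway were described by the same counts. The regulators of fructose 2,6-bisphosphate, the main switch of phosphofructokinase, had 3 genes higher and 2 lower with a median of 0.04. Pfkfb3 was level at 7.5 and 7.69 FPKM, Pfkfb2 was at 3.01 and 4.07 FPKM with a log2 ratio of 0.44 (0.33 to 0.54), and Pfkfb1 was at 1.16 and 0.69 FPKM with -0.75 (-1.04 to -0.46). Lactate and pyruvate handling had 7 genes higher and 11 lower, with a median of -0.07. All 4 Slc16a carriers, which move lactate across the membrane, had ratios above 0, opposite in sign to Ldha. Slc16a8, from 5 and 26 counts, passed the minimum of 0.1 FPKM only through SJMHE1, which favours a ratio above 0. The interval of Slc16a3 included 0 (-0.05 to 0.48). Only Slc16a1 reached 1 FPKM. It was at 3.11 and 4.04 FPKM, a log2 ratio of 0.38 (0.24 to 0.51), and its chaperone Bsg, the most abundant gene of the list, was at 34.38 and 40.95 FPKM, 0.25 (0.19 to 0.32). Pdk2, an inhibitory kinase of pyruvate dehydrogenase, had the lowest ratio at 3.63 and 2.58 FPKM, -0.49 (-0.67 to -0.32).

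The pentose phosphate pathway, which makes ribose and NADPH, had 3 genes higher and 7 lower with a median of -0.08, from Tkt at -0.34 to Rpe at 0.46, and Taldo1 as its most abundant gene at 46.06 and 42.24 FPKM. Glycogen metabolism had 2 higher and 8 lower with a median of -0.19, from Pygm at -0.60 to Gbe1 at 0.07, and Ugp2 as its most abundant gene at 15.77 and 13.47 FPKM. Over all 11 lists, 121 genes had an FPKM of at least 1 in a library and 3 of them, or 2.48%, were past 2-fold, against the 6.0% of all genes. The share of all genes also counts genes under 1 FPKM in 1 library. Of the 11366 genes with at least 1 FPKM in both, 101 were higher and 151 lower past 2-fold.

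**Figure D4:**
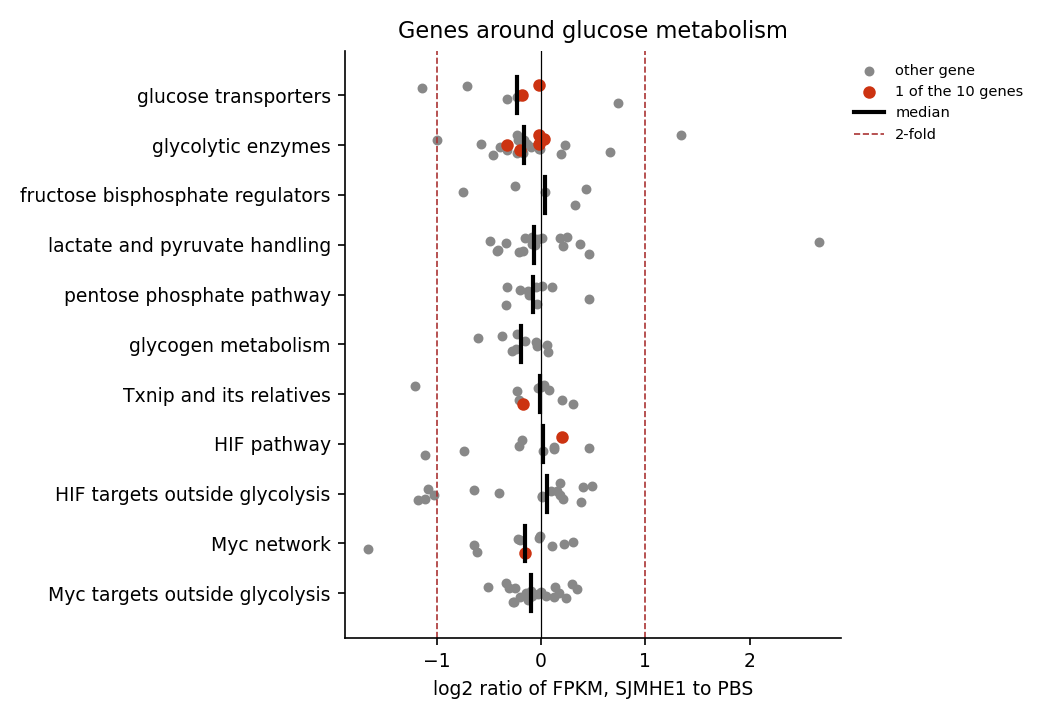
Each dot is the log2 ratio of FPKM, SJMHE1 to PBS, of 1 gene with an FPKM of at least 0.1 in a library and above 0 in both, in 11 lists around glucose metabolism. Black bars give the list medians, between -0.23 for glucose transporters and 0.05 for HIF targets outside glycolysis, red dots the 10 genes, and the dots past the dashed 2-fold lines include genes under 1 FPKM.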

How the data were processed

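RNA of B cells sorted from the spleen, mixed from 3 mice per group, was depleted of ribosomal RNA and sequenced as 1 library per group by a commercial service. The authors deposited 1 table of 27088 genes. It gives read counts, deposited as unscaled whole numbers, and FPKM, deposited with 2 decimals, in which the authors divided by exon length and library size. The submitters' processing notes name bcl2fastq 2.0, HISAT2, StringTie, DESeq2, limma and the build mm10 without roles, and whether counting used strand is not given in the sources used here. Of the identifiers, 27025 were found in GENCODE M21. The table holds 2 further columns of per-sample values whose names match no sample label. They were not used, so comparisons with the Control group were not made.

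The measure was the log2 ratio of FPKM, SJMHE1 to PBS, without a pseudocount, over the 12433 genes that reached 1 FPKM in a library and were above 0 in the other, and lists used a minimum of 0.1. The threshold was a log2 ratio of 1. Intervals are Clopper-Pearson intervals of the 2 counts for ratios and Poisson intervals for levels, both at 95% and for counting error only. No test with replicates could be fitted to 1 library per group. Lists were described by counts and medians and were not tested. The 10 genes, the lists and the settings were chosen with earlier results of these data known. Named besides the 10 genes are the most abundant, the highest and the lowest gene of each list at 1 FPKM or more, list genes past the threshold, family members, overlapping genes and near-identical copies. Slc2a4, Slc2a8, Slc2a9, Arrdc4, Arnt, Vhl, Max, Mxd4, Mlxip, Mlxipl, Pkm and Pdha1 were added for their role after their values were seen. The values of some genes are not reported here. Shared windows are 50-base exon stretches found in another gene of the annotation. Promoters are RefSeq sequences of GRCm38.p6. Alternatives were pseudocounts of 0.1 and 1, equal FPKM sums, counts scaled to 1000000, edgeR TMM, DESeq2 size factors, centring on the median, sums without the 50 most abundant genes, other filters, and, added after seeing the data, copies summed and principal transcript lengths. On simulated libraries of 12428 genes, 100% of the genes changed 4-fold were recovered, 95.1% of true ratios lay in their interval, and 53 unchanged genes were past the threshold. The simulated counts varied by counting error alone, as the intervals assume, and only well counted genes were changed. These figures check the calculation and say nothing of how mice or sorts differ. Python 3.11.15, numpy 2.4.6, pandas 2.3.3, scipy 1.17.1, matplotlib 3.10.9, R 4.3.3, edgeR 4.0.16 and DESeq2 1.42.0 were used.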

Additional observations from a re-analysis of the deposited data

How the results depend on the processing

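No paired analysis was possible because with 1 library a group, nothing was tested. The comparisons with the Control group were not run. Over 8 alternatives of scaling and pseudocount, Slc2a1, Pgk1, Ldha, Txnip and Myc stayed below 0 and Pfkp and Hif1a above 0, while Slc2a3, Hk2 and Eno1 took both signs. Of 233 recomputed values, 187 moved by no more than a set limit. The limit was the distance from the centre to an end of the counting interval, or for counts of genes 1.5 times. For list medians the ends were medians of the single-gene interval ends, which give no interval of the list median. With equal FPKM sums, which shift the median of all genes by 0.083, the log2 ratios were -0.10 for Slc2a1, 0.060 for Slc2a3, 0.12 for Pfkp, -0.12 for Pgk1, 0.065 for Eno1, -0.24 for Ldha, -0.093 for Txnip, 0.29 for Hif1a and -0.074 for Myc. The list medians were then 0.12 for fructose bisphosphate regulators, 0.013 for lactate and pyruvate handling, 0.0043 for the pentose phosphate pathway, -0.11 for glycogen metabolism, 0.074 for Txnip and its relatives, -0.074 for the Myc network and -0.0093 for Myc targets. With DESeq2 size factors the values were 0.026 for Eno1, -0.28 for Ldha, -0.13 for Txnip and -0.11 for Myc and the Myc network. Txnip was at -0.15 without the 50 most abundant genes, the Myc network at -0.018 with a minimum of 1 FPKM, and Eno1 at -0.11 with its copies summed. Genes past 2-fold, 302 higher and 444 lower, numbered 1367 and 2018 without a filter, 100 and 146 after adding a pseudocount of 1, 101 and 151 with 1 FPKM in both libraries, 52 and 93 with 5 FPKM in at least 1, and 89 and 171 among protein-coding genes. By principal transcript length, the shares in PBS and SJMHE1 were 47.8% and 44.9% for Slc2a1, 8.59% and 9.09% for Hk2, 58.1% and 60.7% for Pfkp, 55.5% and 58.8% for Eno1 and 98.8% and 98.2% for Ldha, and that of Hif1a was 99.4% in SJMHE1 and that of Myc 99.6% in PBS. Values for both copies and transcript lengths were chosen after seeing the data. Depth limited Hk2 most, with 618 counts in PBS.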

Other observations

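Gapdh, the glycolytic enzyme often taken as a constant reference, was listed at only 6.29 FPKM from 1428 counts in the PBS library and 4.78 FPKM from 1147 counts in the SJMHE1 library, a log2 ratio of -0.40 (-0.51 to -0.28). Of its 50-base exon windows, 24.7% also occur in other genes, which number 218, and the copy Gm7336 held 1766 and 1572 counts, Gm12671 1557 and 1358, Gm12033 1554 and 1247, and Gm10359 1296 and 1075. Each of these copies was thus counted on the scale of Gapdh itself, and each was lower in the SJMHE1 library by count. These genes were chosen after their values were seen.

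Pgam1, phosphoglycerate mutase, shares 36.2% of its windows, mostly with Pgam1-ps2, which held 150 counts in PBS and 118 in SJMHE1. Pgam1 itself was at 35.82 and 28.66 FPKM, a log2 ratio of -0.32 (-0.39 to -0.25), close to that of Ldha. Pkm shares 25.8%, and its copy Gm49759 held 2112 and 2507 counts, higher in SJMHE1 by count where Pkm was lower.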
